A study of Mus musculus with 49 samples.

Results

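Macrophages answer bacterial lipopolysaccharide (LPS) in waves: some genes rise within a few hours, others only overnight. The genes described here belong to the late wave of wild-type (WT) bone-marrow-derived macrophages (BMDM). A gene was taken when its mean over the 3 WT libraries at 16 h of LPS was at least 10 CPM (read counts scaled to a common library total) and at least 4 times its mean at 0 h, while its mean at 4 h stayed at or below 1.5 times that at 0 h. The alarmin gene S100a8, with WT means of 1.95, 2.63 and 30.1 CPM, also met these limits and was left out by the rule. The members were thus selected on WT expression values at all 3 times. The rule gave 46 genes of 14896 listed, all protein coding. By comparison, 334 genes met the same 16 h limits but had already passed the 4 h limit; they are called early and sustained below. All 46 are among the 12058 genes that reached 1 CPM in at least 3 libraries and entered the tests; the 10 CPM limit at 16 h makes this likely, so it supports nothing about them.

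The BMDM came from C57BL/6 mice and were grown for 7 days with M-CSF, the growth factor that drives marrow cells to macrophages. Cells of WT and of Elf4 KO mice (genotype label Elf4 KO) were left untreated (0 h) or given LPS at 100 ng/ml for 4 or 16 h, with 3 RNA libraries for each genotype and time. ELF4 is an ETS-family transcription factor, and the study asks how it acts on inflammation. The labels do not say how the knockout allele was made. The same series holds T cells with an Elf4 W250S allele, and open chromatin of naive CD4 T cells labelled WT and KO. Both are used at the end.

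LPS binds TLR4 and first switches on NF-kB and interferon-driven genes through factors already present in the cell. Late genes usually need new proteins, secreted signals or changes in metabolism before they are transcribed. In macrophages such genes are known to include heme and iron handling, the response to low oxygen, arginine use and receptors of the myeloid surface.

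The members were iron, heme, metal and redox genes (5), genes of low-oxygen, carbon and small-molecule metabolism (7), matrix proteins and their receptors (5), myeloid surface receptors (15), regulators of transcription and signalling (5) and 9 others. In WT the ratio of 16 h to 0 h ran from 4.04 to 540 with a median of 5.79, and that of 4 h to 0 h from 0.160 to 1.48 with a median of 0.925. At 4 h, 29 members were below their 0 h mean in WT, and 8 were at or below 0.5 times it. These WT values chose the genes and are given without a test.

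The KO libraries, which the rule did not use, followed. All 46 members were called up in KO at 16 h against KO 0 h (limma, Benjamini-Hochberg adjusted p below 0.05), where 17.8% of tested genes were called up and 50.1% down. Their log2 changes ran from 1.21 to 7.42 with a median of 2.36, against a median of -0.30 over all tested genes, and the largest adjusted p was 0.0035, for Dcn. In each of the 46 the 3 KO libraries at 16 h lay above the 3 at 0 h. In KO the ratio of means, 16 h to 0 h, ran from 2.37 to 567 with a median of 5.27; it was at least 4 in 35 members and at least 2 in all 46. All 46 were also called up in KO at 16 h against KO 4 h, where 55.7% of tested genes were.

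**Figure D1:**
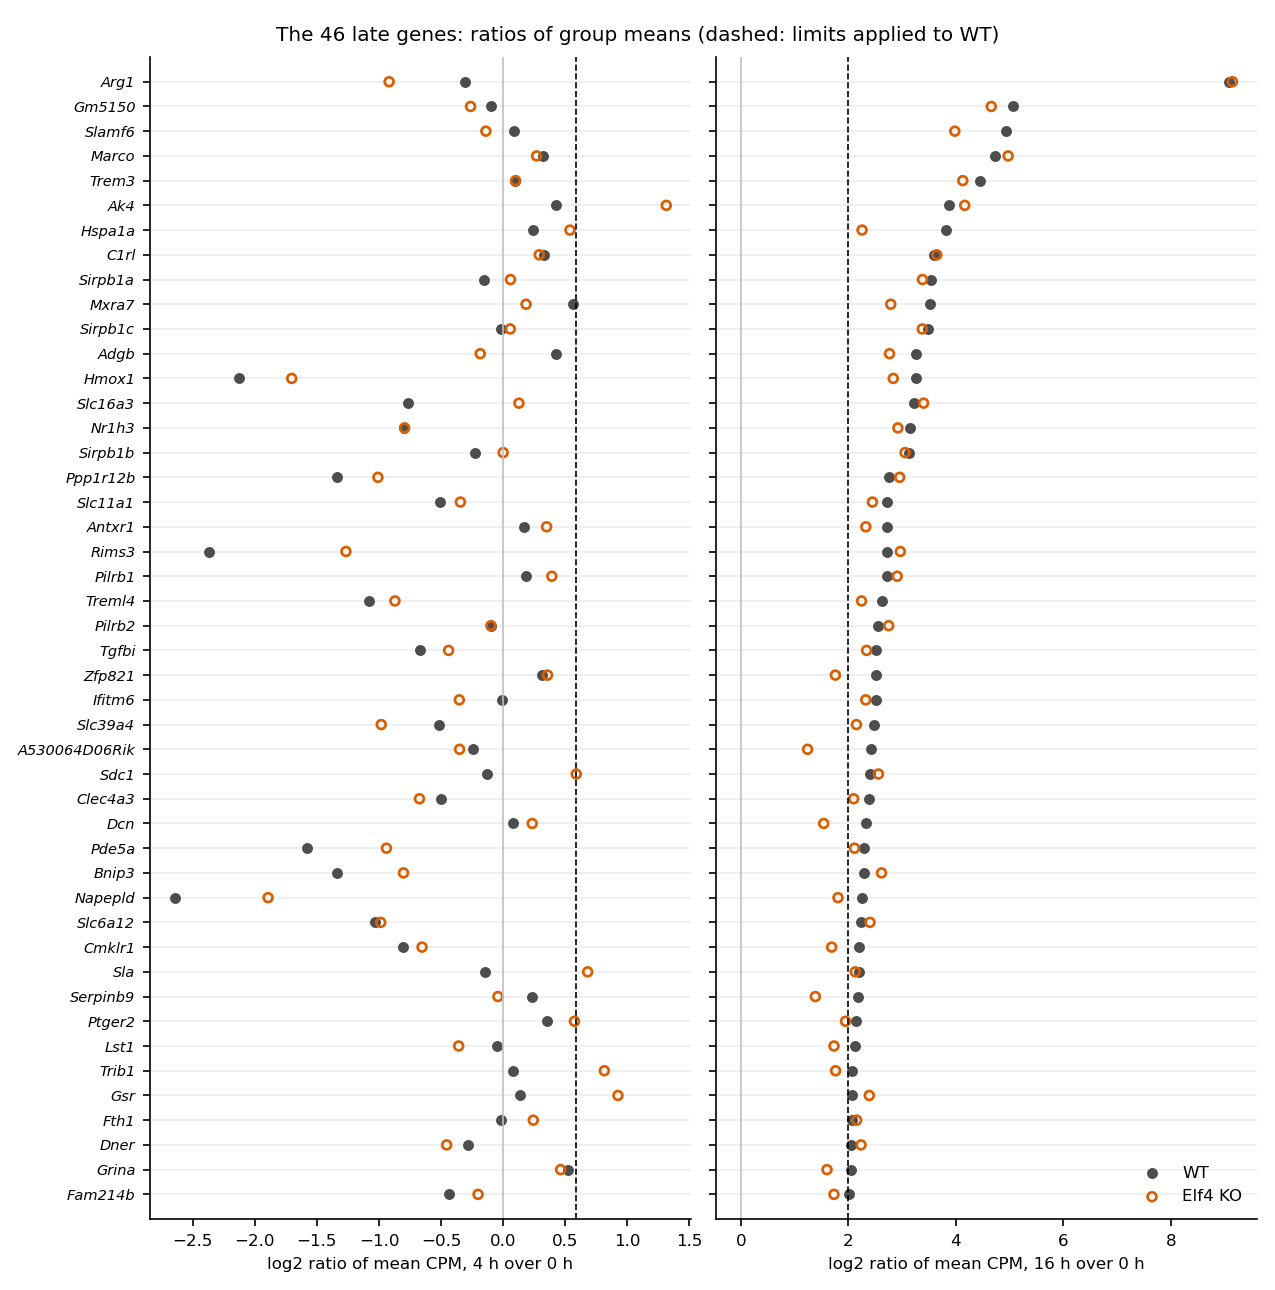
Ratio of mean CPM at 4 h (left) and at 16 h (right) to 0 h, on a log2 axis, for each of the 46 genes in WT (filled) and Elf4 KO (open), 3 libraries a group; dashed lines mark the limits applied to WT. In KO 35 genes lie at or beyond the 16 h line and 41 at or below the 4 h line.

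The depth, the label check and the cell markers were as follows. The sums of CPM were 950599 to 954161 per library, and the most frequent low value, taken as 1 read, gives 11.5 to 16.8 M reads per library. Elf4 itself was 105 ± 7.96, 68.7 ± 5.07 and 132 ± 2.52 CPM in WT at 0, 4 and 16 h (mean ± SD, n = 3) and 22.0 ± 3.23, 17.2 ± 2.63 and 29.5 ± 2.65 CPM in the libraries labelled KO. Macrophage markers were present at 1 CPM or more in all groups, 10 of 10. Stromal markers, 12 or 13 of 14 at 1 CPM or more, summed to 742 to 2381 CPM in KO and 536 to 960 CPM in WT at 0 h, and to 1076 to 3344 CPM in KO and 639 to 1161 CPM in WT at 16 h, and KO replicate 2 was the highest at each time. Neutrophil markers, 10 of 13 listed and 1 to 4 of them at 1 CPM or more, summed in WT to 22.8 to 35.3, 13.3 to 23.3 and 64.1 to 71.9 CPM at 0, 4 and 16 h, and in KO to 16.6 to 36.5, 13.1 to 23.5 and 67.1 to 90.9 CPM, so they too were highest at 16 h. Of that sum at 16 h Mmp8 made up a mean of 58.1 CPM in WT and 60.9 CPM in KO, and Mcemp1 7.42 and 13.5 CPM. The granule genes Elane, Mpo, Prtn3 and Ltf were under 1 CPM in both at 16 h. Camp and Ngp were then 0.484 and 0.160 CPM in WT and 1.61 and 1.01 CPM in KO. At 0 h Mpo, Ngp and Ltf were 2.83, 2.10 and 1.39 CPM in KO and under 1 CPM in WT. Erythroid and megakaryocyte markers, 9 of 10 listed and nearly all of it Pf4, summed to 132 to 172, 99.9 to 134 and 83.2 to 111 CPM in KO, wholly above WT with 89.6 to 117, 67.1 to 82.8 and 45.9 to 56.1 CPM, and the globin genes were under 1 CPM. T cell markers, 3 of 10 listed, summed to 62.0 to 136 CPM at 0 h, nearly all Cd28, and to 1.27 to 2.91 CPM at 16 h. Endothelial markers, 8 of 10 listed, summed at 16 h to 161 to 187 CPM in WT and 126 to 154 CPM in KO, and at 0 h to 98.1 to 126 CPM over both. Dendritic cell markers, 9 of 10 listed, stood at 12.4 to 49.8 CPM at 0 h, 166 to 197 CPM at 4 h and 22.7 to 48.0 CPM at 16 h. The part of these cells in the results below was not tested. In bulk RNA, fewer cells of a type and less RNA per cell cannot be told apart.

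The flat or falling level at 4 h depends on scale. Median-ratio factors, which set the typical gene equal between libraries, were 1.27 to 1.36 at 0 h, 0.721 to 0.809 at 4 h and 0.977 to 1.07 at 16 h. CPM divided by these factors raise 4 h against 0 h, and on that scale only 18 of the 46 (39.1%) still met the rule. All 28 lost members exceeded the 4 h limit, and 0 missed the 16 h fold. The 18 are Tgfbi, Hmox1, Slc11a1, Slc16a3, Nr1h3, Arg1, Fam214b, Clec4a3, Bnip3, Cmklr1, Ppp1r12b, Napepld, Rims3, Slc6a12, Pde5a, Dner, Slc39a4 and Treml4. In KO, the median of all tested genes at 4 h against 0 h was -0.77 in CPM and -0.07 after scaling, that at 16 h against 0 h -0.30 and 0.00. Scaling also moved the split of all tested genes called up and down in KO, to 30.0% and 31.1% at 16 h against 0 h, 33.1% and 39.4% at 4 h against 0 h, and 35.4% and 34.5% at 16 h against 4 h.

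Read on the CPM scale, 9 members were called up and 15 down in KO at 4 h against KO 0 h (22 neither), where 15.6% of tested genes were called up and 70.8% down. After median-ratio scaling 27 were up, 2 down and 17 neither. The members' median log2 change was -0.09 in CPM, against -0.77 for all tested genes, and 0.55 after scaling, against -0.07. The 9 called up were Ak4, Gsr, Trib1, Sla, Sdc1, Ptger2, Grina, Pilrb1 and Zfp821, and all 9 were called up on both scales. Ptger2 was not called without KO 0 h replicate 1 (limma, adjusted p = 0.0569) or with only the 6 libraries compared (0.0654), and Pilrb1 not without KO 4 h replicate 1 (0.0691) or with only those 6 (0.0745). The count of 15 called down was 10 with only those 6 and 11 without KO 4 h replicate 1. Hmox1 and Napepld were called down on both scales. 

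**Figure D2:**
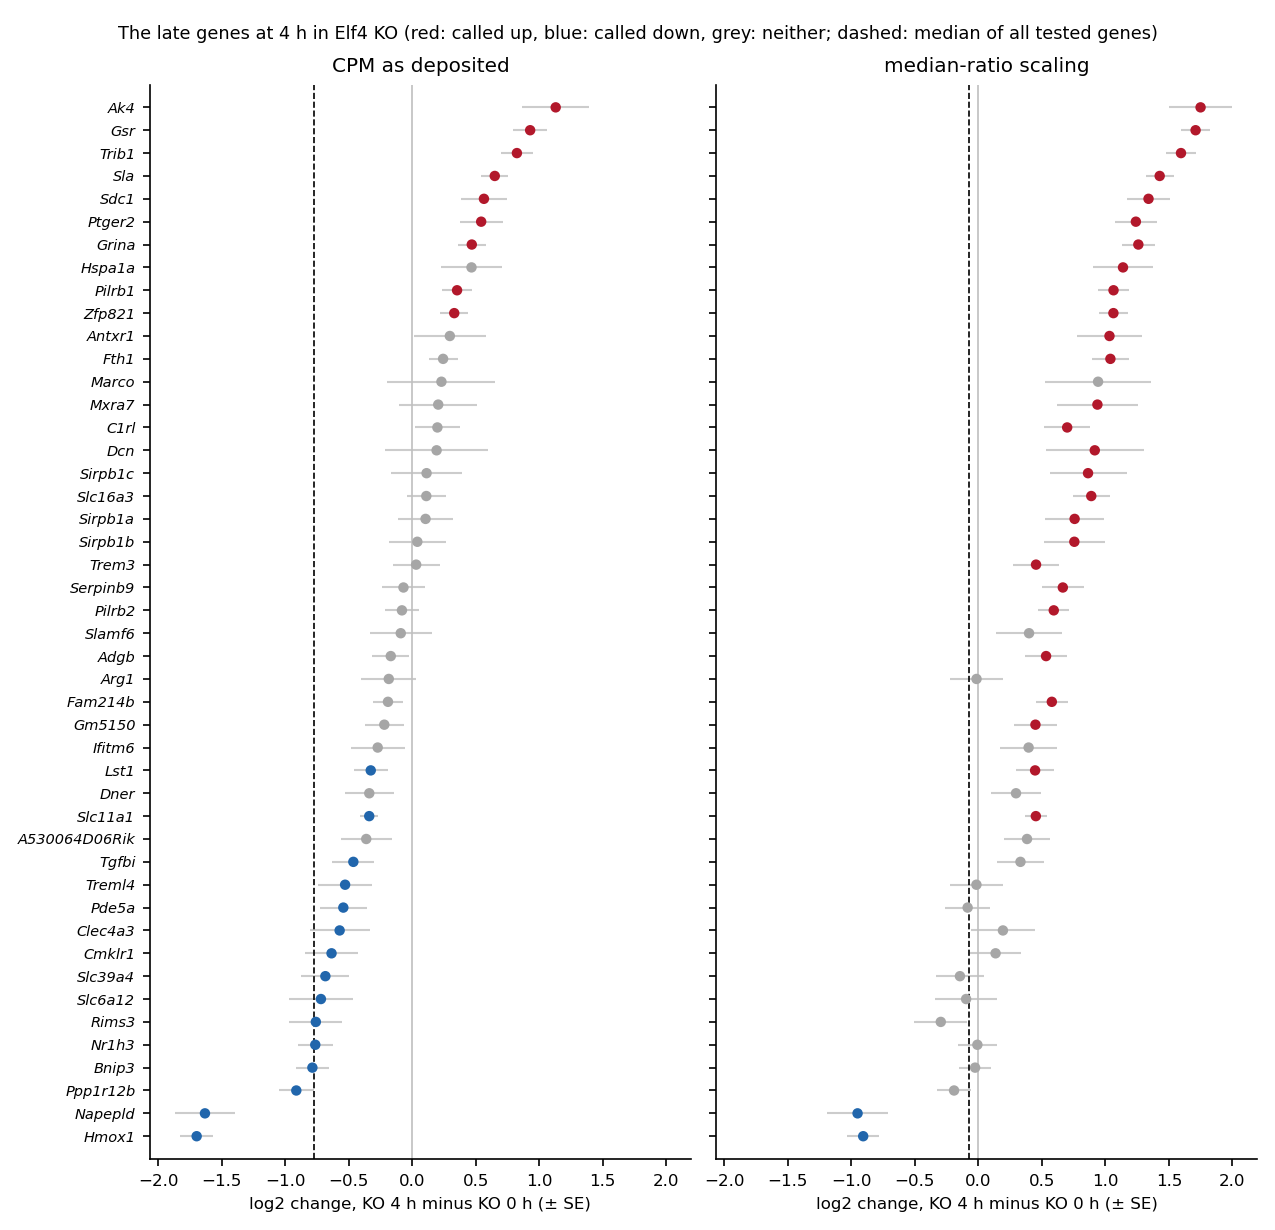
Log2 change ± SE of each member in KO at 4 h against 0 h from limma, in deposited CPM (left) and after median-ratio scaling (right); red, called up; blue, called down; grey, neither; the dashed line is the median of all tested genes. The count called down goes from 15 to 2 and that called up from 9 to 27.

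Short stretches upstream of some members show what the promoters hold. RefSeq start sites (GRCm38.p6, the patch release of mm10) were at hand for 35 of the 46, in 50 promoters. The 250 bases before each start were searched on both strands. The other 11 had no promoter at hand and were not searched. They are Antxr1, Arg1, Dcn, Grina, Gsr, Hmox1, Lst1, Sla, Slc39a4, Trem3 and Trib1. The core of the interferon-stimulated response element, GAAA, any 2 bases, then GAAA again, was found in 7 of the 35 (20%), against 3.57% of tested genes and 18.3% of the early and sustained genes with a promoter. They are shown because 5 of the 7 come from 2 families of neighbouring, closely similar genes, so the 7 are not independent. Capitals mark the match, and each run reads 5′ to 3′ on the gene's strand.
Sirpb1a, chr3:15426625-15426674, minus strand: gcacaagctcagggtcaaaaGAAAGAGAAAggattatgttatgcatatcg
Sirpb1b, chr3:15575170-15575219, minus strand: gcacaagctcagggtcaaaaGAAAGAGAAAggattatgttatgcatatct
Gm5150, chr3:16006543-16006582, minus strand: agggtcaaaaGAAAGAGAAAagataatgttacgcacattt
Pilrb1, chr5:137858252-137858299, minus strand: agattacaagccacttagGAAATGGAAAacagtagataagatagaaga
Pilrb2, chr5:137871961-137872008, minus strand: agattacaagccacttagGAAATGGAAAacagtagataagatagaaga
Serpinb9, chr13:33004475-33004524, plus strand: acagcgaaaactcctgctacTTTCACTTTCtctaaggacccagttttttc
Tgfbi, chr13:56609372-56609421, plus strand: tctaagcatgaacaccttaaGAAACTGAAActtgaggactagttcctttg
The stretches of Pilrb1 and Pilrb2 are identical, and Serpinb9 holds the match on the opposite strand. Of these 7 genes, Serpinb9 was lower in KO at 16 h and Gm5150, Pilrb1 and Pilrb2 higher, in all 3 libraries each, while Sirpb1a, Sirpb1b and Tgfbi overlapped WT.

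The letters ACGTG, the core of the hypoxia response element, stood in 7 of the 35 (20%), against 25.2% of tested genes and 20.2% of the early and sustained ones. The 3 that belong to the low-oxygen and metabolic group are shown. They were picked knowing that all 3 were above WT in every KO library at 16 h. Any link of the motif to the level in KO was not tested.
Bnip3, chr7:138909589-138909634, minus strand: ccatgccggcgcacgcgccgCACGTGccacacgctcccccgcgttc
Ak4, chr4:101419469-101419514, plus strand: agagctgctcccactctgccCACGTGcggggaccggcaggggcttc
Slc16a3, chr11:120949020-120949066, plus strand: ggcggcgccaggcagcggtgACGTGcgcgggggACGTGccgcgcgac
In Bnip3 and Ak4 the match forms CACGTG, a palindrome that is also an E-box, so both strands count; Slc16a3 has 2 separate matches. The other 4 with ACGTG were C1rl, Cmklr1, Fam214b and Sirpb1b. At 16 h C1rl was higher in KO and Fam214b lower, without overlap, while Cmklr1 and Sirpb1b overlapped WT. The form CACGTG also stands in C1rl and Cmklr1. TGACNNNGC, the core of the antioxidant response element, was found in 4 members (11.4%; 14.0% of tested genes) and TGANTCA, an AP-1 site, in 2 (5.71%; 5.55%). The redox members Hmox1 and Gsr were not among those searched. GGAAG, which many ETS factors bind, stood in 28 (80%; 73.5%). A match is a run of letters and not a measured site.

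Of the iron, heme, metal and redox genes, 4 of 5 also met the rule in KO. CPM is not divided by gene length, so levels are compared within a gene only. Fth1 encodes the heavy chain of ferritin, which stores iron. Its WT libraries read 7545, 6869.7 and 6625 CPM at 0 h, 7162, 6907 and 6711 at 4 h and 28718, 30932 and 28446 at 16 h. KO read 6821, 6442 and 6976 CPM at 0 h, 7624, 8174 and 8144 at 4 h and 29807, 27683 and 32751 at 16 h. The 16 h libraries of each genotype stood clear of those at 0 h and 4 h, KO was above WT at 4 h only, and the KO change at 16 h was 2.15 ± 0.11 (SE), adjusted p = 2.9e-11. Fth1 has many processed copies in the genome, and how reads were shared with them is not given in the sources used here.

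Hmox1 encodes heme oxygenase, which breaks down heme to iron, carbon monoxide and biliverdin. WT libraries held 292, 274 and 223 CPM at 0 h, 53.8, 71.3 and 55.8 at 4 h and 2531, 2593 and 2419 at 16 h. The 4 h libraries were the lowest and those at 16 h the highest, with no overlap. KO libraries held 286, 275 and 228.2 CPM at 0 h, 71.7, 97.1 and 73.7 at 4 h and 2027, 1684 and 1935 at 16 h, so the dip and the rise were both there (16 h against 0 h 2.84 ± 0.13 (SE), adjusted p = 5.6e-12; 4 h against 0 h -1.70 ± 0.13 (SE), adjusted p = 1.3e-09). At 16 h the 3 KO libraries were below the 3 WT ones (KO minus WT -0.42 on the log2 scale), whereas at 4 h they were above (0.41).

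Slc11a1, a phagosome metal transporter at chr1:74375014-74386057, read 136, 131 and 138 CPM at 0 h, 100.2, 92.7 and 91.0 at 4 h and 910.0, 889.6 and 877 at 16 h in WT. In KO it read 153, 155 and 178 CPM at 0 h, 126, 124 and 133 at 4 h and 924, 817 and 918 at 16 h. In CPM, KO was above WT without overlap at 0 h and 4 h and overlapped it at 16 h. Gsr, glutathione reductase, read 43.9, 44.2 and 45.6 CPM at 0 h, 46.4, 50.9 and 49.8 at 4 h and 179.8, 191 and 193 at 16 h in WT and 43.3, 54.0 and 32.5 CPM at 0 h, 71.5, 95.6 and 79.1 at 4 h and 212, 252.3 and 217 at 16 h in KO. In KO it was already up at 4 h (0.93 ± 0.13 (SE), adjusted p = 3.8e-06), and the KO libraries stood above WT at 4 h and 16 h. The zinc importer Slc39a4 ended at 11.1 ± 1.35 CPM in WT and 14.1 ± 1.06 in KO at 16 h, without overlap in CPM but with overlap after median-ratio scaling.

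**Figure D3:**
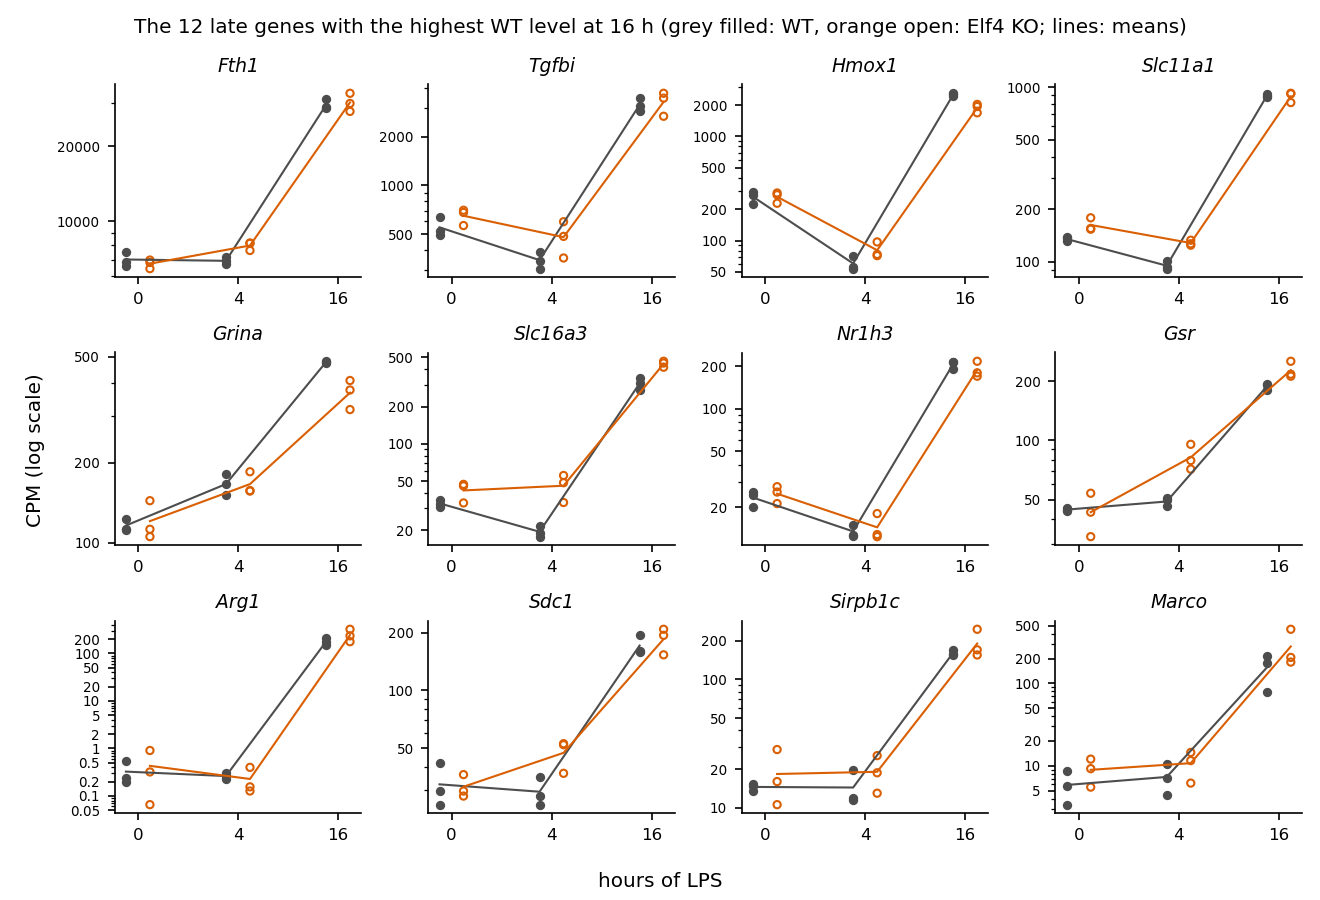
CPM on a log axis in each of the 3 libraries (points) and their means (lines) at 0, 4 and 16 h for the 12 members with the highest WT mean at 16 h; grey filled, WT; orange open, Elf4 KO. Fth1 runs flat to 4 h in WT (7013 to 6927 CPM) and then reaches 29365 CPM, and Hmox1 and Grina end lower in KO than in WT.

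Arg1 was the gene with the greatest late rise. Arginase 1 turns arginine into ornithine and urea and is best known from alternatively activated macrophages. WT libraries were 0.241, 0.535 and 0.200 CPM at 0 h, 0.260, 0.304 and 0.223 at 4 h and 147, 210.3 and 170.1 at 16 h. KO libraries were 0.0656, 0.320 and 0.905 CPM at 0 h, 0.400, 0.156 and 0.127 at 4 h and 234, 176 and 322 at 16 h. All 12 libraries at 0 h and 4 h stayed under 1 CPM, so the 0 h level rests on few reads, and the ratios of 16 h to 0 h, 540.5 in WT and 567 in KO, are imprecise. KO and WT overlapped at every time, and the KO change at 16 h was 7.42 ± 0.22 (SE), adjusted p = 1.3e-14, on log2(CPM + 1), which understates the change of so low a gene.

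Slc16a3, Bnip3 and Ak4, known from lactate export and the response to low oxygen, stood higher in KO than in WT at 16 h. Slc16a3 encodes MCT4, which exports lactate. In WT it read 31.1, 35.2 and 32.8 CPM at 0 h, 17.8, 21.6 and 18.9 at 4 h and 273, 338 and 313.1 at 16 h. KO libraries read 45.7, 47.0 and 33.3 CPM at 0 h, 33.5, 48.5 and 55.5 at 4 h and 416, 465 and 450.1 at 16 h, above WT at 4 h and 16 h without overlap. Bnip3, a mitochondrial protein of mitophagy, read 20.2, 25.1 and 22.8 CPM at 0 h, 8.06, 9.49 and 9.36 at 4 h and 102, 121 and 108 at 16 h in WT and 27.3, 31.6 and 27.4 CPM at 0 h, 12.3, 18.9 and 18.2 at 4 h and 162, 177 and 190.4 at 16 h in KO. KO was the higher at all 3 times without overlap, by 0.33, 0.79 and 0.67 on the log2 scale. Ak4, a mitochondrial adenylate kinase, read 1.37, 1.53 and 1.87 CPM at 0 h, 2.77, 2.28 and 1.34 at 4 h and 18.2, 29.4 and 22.6 at 16 h in WT and 2.03, 4.55 and 1.46 CPM at 0 h, 5.12, 8.01 and 6.86 at 4 h and 40.1, 58.8 and 45.5 at 16 h in KO, where it had risen by 4 h (1.13 ± 0.26 (SE), adjusted p = 0.00063) and stood above WT at 4 h and 16 h.

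The lists that these genes come from moved as follows in KO. Of 32 tested genes known from low oxygen, 24 rose and 4 fell at 16 h against 0 h, with a median of 1.08 against -0.30 for all tested genes, of which 17.8% rose and 50.1% fell. Of 21 glycolytic genes 17 rose and 1 fell (median 1.28). At 4 h, 8 of the low-oxygen genes were called up and 16 down in CPM but 16 up and 7 down after median-ratio scaling, and glycolytic genes 5 and 12 against 13 and 3, so no direction at 4 h holds on both scales, although both list medians (-0.43 and -0.54 in CPM, 0.23 and 0.25 scaled) lay above that of all genes. Of all tested genes 15.6% were called up and 70.8% down at 4 h. In the NRF2 and glutathione list (31 tested), which holds Hmox1 and Gsr, 19 rose and 10 fell at 16 h, and in the metal list (15 tested), which holds Fth1 and Slc11a1, 10 rose and 4 fell. After scaling, where 30.0% of tested genes rose and 31.1% fell at 16 h, the counts were 26 and 3 for low oxygen, 18 and 0 for glycolysis, 20 and 5 for NRF2, and 10 and 3 for metals. Of the interferon list, 45 of 48 tested genes were called up at 4 h and all 48 at 16 h, and 37 of the 48 are early and sustained. The interferon list holds no member. Other lists with members were mixed at 16 h. Of 19 tested alternative activation genes (with Arg1), 5 rose and 10 fell (median -1.02). In the nitric oxide and arginine list (16, with Arg1) 7 rose and 5 fell, and in the prostaglandin list (17, with Ptger2) 4 and 7. The adhesion list (30, with Sdc1) gave 16 and 9, and the matrix list (34, with Tgfbi) 20 and 3. After scaling these were 5 and 8, 8 and 4, 6 and 7, 17 and 7, and 22 and 3. The lists were chosen with earlier results of these data known.

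The other metabolic members did not all point the same way between genotypes. The osmolyte transporter Slc6a12 read 3.45, 4.28 and 4.40 CPM at 0 h, 1.73, 2.58 and 1.63 at 4 h and 18.3, 20.9 and 17.7 at 16 h in WT and 2.75, 7.56 and 6.68 CPM at 0 h, 2.24, 3.73 and 2.60 at 4 h and 23.1, 30.2 and 36.8 at 16 h in KO, higher in KO at 16 h only. Pde5a, which degrades cyclic GMP, went the other way: WT read 3.13, 3.44 and 2.94 CPM at 0 h, 0.780, 1.29 and 1.11 at 4 h and 16.3, 16.0 and 14.5 at 16 h and KO 1.51, 2.95 and 1.60 CPM at 0 h, 1.12, 1.40 and 0.635 at 4 h and 9.94, 9.28 and 7.03 at 16 h. KO was below WT without overlap at 16 h (KO minus WT -0.78 on the log2 scale), and its KO mean of 8.75 ± 1.53 CPM missed the 10 CPM limit. Napepld, an enzyme of N-acylethanolamine synthesis, had the deepest dip at 4 h, to 0.160 of 0 h in WT and 0.269 in KO, and its 16 h libraries in KO were spread from 26.6 to 72.2 CPM.

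Matrix genes rose in both genotypes. Tgfbi, a secreted matrix protein, read 495, 522 and 635 CPM at 0 h, 343, 306 and 387 at 4 h and 3108, 2898 and 3468 at 16 h in WT and 681, 565 and 703 CPM at 0 h, 484, 356 and 597 at 4 h and 3474, 2683 and 3724 at 16 h in KO, overlapping at every time. Syndecan 1 (Sdc1), a cell-surface heparan sulfate proteoglycan, read 29.7, 25.3 and 41.9 CPM at 0 h, 25.3, 28.1 and 35.3 at 4 h and 162, 159 and 195 at 16 h in WT. Its KO libraries read 28.0, 36.3 and 29.8 CPM at 0 h, 36.9, 52.7 and 52.0 at 4 h and 153, 194 and 209 at 16 h, higher than WT at 4 h only. Decorin (Dcn), a small matrix proteoglycan and itself a stromal marker, read 4.34, 3.21 and 6.54 CPM at 0 h, 3.21, 4.56 and 7.13 at 4 h and 17.5, 24.7 and 29.0 at 16 h in WT and 8.45, 19 and 6.89 CPM at 0 h, 9.44, 23.2 and 7.81 at 4 h and 33.2, 48.0 and 19.1 at 16 h in KO, above WT at 0 h and 4 h without overlap.

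Dcn followed the stromal sum across KO libraries: replicate 2 was the highest in both and replicate 3 the lowest in both at 0, 4 and 16 h. The matrix receptor Antxr1 was also highest in KO replicate 2 at each time (45.2 ± 3.64 CPM in WT and 61.2 ± 11.1 in KO at 16 h), whereas Mxra7 was highest in KO replicate 3 (64.9 ± 7.59 and 86.8 ± 23.2 CPM). With KO replicate 2 left out at every time, an alternative chosen after seeing the data, all 46 members were still called up in KO at 16 h. The part of stromal cells in the levels of Dcn and Antxr1 was not tested.

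Myeloid surface receptors formed the biggest group, 15 genes, and 9 of them lie in 3 clusters. The signal regulatory protein genes Sirpb1a, Sirpb1b and Sirpb1c with the related model Gm5150, which are receptors that signal through an adaptor, sit on chromosome 3 between 15371661 and 16006371. The triggering-receptor genes Trem3 and Treml4 lie with A530064D06Rik on chromosome 17 between 48151896 and 48275607. Pilrb1 and Pilrb2, activating paired receptors, lie 7396 bases apart on chromosome 5. Near-identical copies can share reads, so levels within the chromosome 3 and 5 families are uncertain gene by gene. In all, 13 members had another member at most 362474 bases away.

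Sirpb1c read 15.4, 14.7 and 13.5 CPM at 0 h, 19.8, 11.5 and 11.8 at 4 h and 169.7, 159 and 156 at 16 h in WT and 16.0, 10.6 and 28.4 CPM at 0 h, 18.7, 13.0 and 25.5 at 4 h and 170.1, 155 and 246 at 16 h in KO. Its groups overlapped between genotypes at each time, as did those of Sirpb1b (71.2 ± 2.01 and 81.0 ± 13.3 CPM at 16 h). Gm5150 stood at 113, 117 and 115 CPM in WT and 136, 133 and 178 in KO at 16 h, from 4.18, 3.13 and 3.07 and 5.57, 4.80 and 7.31 at 0 h, and was higher in KO at all 3 times without overlap. Sirpb1a was 40.6 ± 3.59 CPM in WT and 50.9 ± 10.4 CPM in KO at 16 h.

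Both Pilrb genes were higher in KO at 16 h. Pilrb1 read 5.94, 5.35 and 5.54 CPM at 0 h, 6.76, 6.15 and 6.24 at 4 h and 36.4, 36.8 and 37.2 at 16 h in WT and 8.91, 6.98 and 6.75 CPM at 0 h, 11.5, 9.17 and 9.02 at 4 h and 49.7, 61.7 and 58.9 at 16 h in KO. It was above WT at all 3 times without overlap. Pilrb2 read 4.10, 4.97 and 4.54 CPM at 0 h, 4.77, 3.49 and 4.46 at 4 h and 25.9, 26.7 and 27.1 at 16 h in WT and 5.77, 6.72 and 4.94 CPM at 0 h, 5.44, 6.14 and 4.70 at 4 h and 34.2, 43.0 and 40.3 at 16 h in KO, apart from WT at 16 h alone.

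The scavenger receptor Marco, which binds bacteria and particles, read 3.37, 8.56 and 5.60 CPM at 0 h, 4.42, 10.5 and 7.05 at 4 h and 78.4, 214 and 174 at 16 h in WT and 5.50, 9.22 and 12.0 CPM at 0 h, 6.16, 14.5 and 11.6 at 4 h and 181, 454 and 207 at 16 h in KO. Its libraries differed by more than 2-fold within groups, and the genotypes overlapped at each time. Lst1, a leukocyte transcript of the major histocompatibility region, was 154 ± 8.2 CPM in WT and 129 ± 23.4 in KO at 16 h. The C-type lectin Clec4a3 was 118 ± 10.1 and 144 ± 37.7 CPM, and the chemerin receptor Cmklr1 97.8 ± 8.97 and 129 ± 25.1 CPM. Cmklr1 was higher in KO at 0 h and 4 h without overlap.

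The prostaglandin E2 receptor Ptger2 read 6.5, 5.43 and 5.14 CPM at 0 h, 7.62, 7.06 and 7.13 at 4 h and 24.6, 25.0 and 26.0 at 16 h in WT and 4.00, 8.01 and 7.10 CPM at 0 h, 7.84, 10.9 and 9.72 at 4 h and 22.7, 25.0 and 26.1 at 16 h in KO, overlapping WT at 0 h and 16 h, with a KO rise at 4 h (0.54 ± 0.17 (SE), adjusted p = 0.0067) that was lost without KO 0 h replicate 1. Slamf6, a homophilic receptor of lymphoid and myeloid cells, rose from 0.767 ± 0.216 to 23.5 ± 2.07 CPM in WT and from 1.84 ± 0.75 to 29.1 ± 3.85 in KO. Trem3 reached 19.2 ± 1.73 CPM in WT and 20.8 ± 1.67 in KO, and Treml4 10.8 ± 0.493 and 12.3 ± 1.80. A530064D06Rik, a numbered model named after its values were seen, read 14.1, 12.6 and 10.9 CPM at 0 h, 10.7, 11.3 and 9.73 at 4 h and 73.4, 62.5 and 66.1 at 16 h in WT and 20.1, 19.6 and 13.0 CPM at 0 h, 13.4, 18.9 and 8.95 at 4 h and 48.9, 38.3 and 37.5 at 16 h in KO. It had the smallest KO ratio of 16 h to 0 h, 2.37 against 5.37 in WT.

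Among regulators, Nr1h3 encodes LXR alpha, the oxysterol-sensing nuclear receptor. It read 24.4, 20.1 and 25.5 CPM at 0 h, 12.7, 12.5 and 15 at 4 h and 214, 192 and 216 at 16 h in WT. In KO it read 21.2, 25.6 and 27.9 CPM at 0 h, 12.3, 12.7 and 18 at 4 h and 179.6, 170.0 and 217 at 16 h, overlapping WT at each time. Trib1, a pseudokinase that steers protein degradation, and Sla, an adaptor that dampens receptor signalling, reached 98.8 ± 0.580 and 150.4 ± 16.8 CPM in WT and 86.8 ± 3.49 and 154 ± 3.18 in KO at 16 h. Both had risen by 4 h in KO (0.82 ± 0.12 and 0.65 ± 0.11 on the log2 scale, ± SE; adjusted p = 6.9e-06 and 1.9e-05). Ppp1r12b, a myosin phosphatase subunit, ended at 85.4 ± 6.15 CPM in WT and 108 ± 18.4 in KO. The zinc finger gene Zfp821 ended at 42.6 ± 1.02 and 35.4 ± 5.46 CPM.

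Hspa1a and Serpinb9 were furthest below WT at 16 h in KO. Hspa1a encodes the inducible chaperone HSP70. Its WT libraries were 4.34, 3.36 and 5.00 CPM at 0 h, 3.99, 5.09 and 5.94 at 4 h and 61.9, 55.2 and 61.2 at 16 h. KO libraries were 4.52, 5.57 and 3.83 CPM at 0 h, 7.12, 6.30 and 6.80 at 4 h and 33.8, 20.4 and 12.4 at 16 h. They overlapped WT at 0 h, were above it at 4 h and were below it at 16 h (KO minus WT -1.49 on the log2 scale), with the 3 KO libraries spread from 12.4 to 33.8 CPM. Hspa1a shares sequence with its neighbour Hspa1b, so its reads are uncertain between them.

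Serpinb9 encodes an intracellular inhibitor of granzyme B. In WT it read 21, 18.5 and 20.6 CPM at 0 h, 18.9, 27.3 and 24.6 at 4 h and 97.2, 84.8 and 91.9 at 16 h. KO read 13.2, 11.6 and 12.5 CPM at 0 h, 8.80, 15.5 and 11.9 at 4 h and 40.4, 27.0 and 30.0 at 16 h. KO was below WT without overlap at 0, 4 and 16 h (KO minus WT -0.65, -0.93 and -1.48 on the log2 scale), and yet it rose from 0 h to 16 h in KO (1.3 ± 0.17 (SE), adjusted p = 2.5e-06). No other member was below WT without overlap at all 3 times; Pde5a also had the lower KO mean at each time, but overlapped WT at 0 h and 4 h.

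Grina, a membrane protein of the family of BAX-inhibitor-like proteins, read 123.3, 113 and 112 CPM at 0 h, 166, 152 and 182 at 4 h and 480.2, 472 and 482 at 16 h in WT and 112, 105 and 144 CPM at 0 h, 157, 156 and 185 at 4 h and 408, 317 and 376 at 16 h in KO, below WT at 16 h. Fam214b was also lower in KO at 16 h (126 ± 7.55 and 103 ± 10.7 CPM). Dner, a transmembrane Notch ligand, read 2.25, 2.75 and 3.34 CPM at 0 h, 1.73, 2.66 and 2.45 at 4 h and 9.80, 14.2 and 10.6 at 16 h in WT and 6.09, 3.20 and 4.94 CPM at 0 h, 4.00, 2.95 and 3.43 at 4 h and 20, 25.0 and 22.2 at 16 h in KO, higher in KO at 4 h and 16 h. The remaining members ended, in WT and KO, at 48.2 ± 3.29 and 55.4 ± 6.46 CPM for the globin-like Adgb, 22.0 ± 1.63 and 30.2 ± 10.5 for Ifitm6, 20.8 ± 1.16 and 18.8 ± 1.28 for Rims3, and 15.4 ± 1.07 and 19.8 ± 2.64 for the complement-related protease C1rl.

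**Figure D4:**
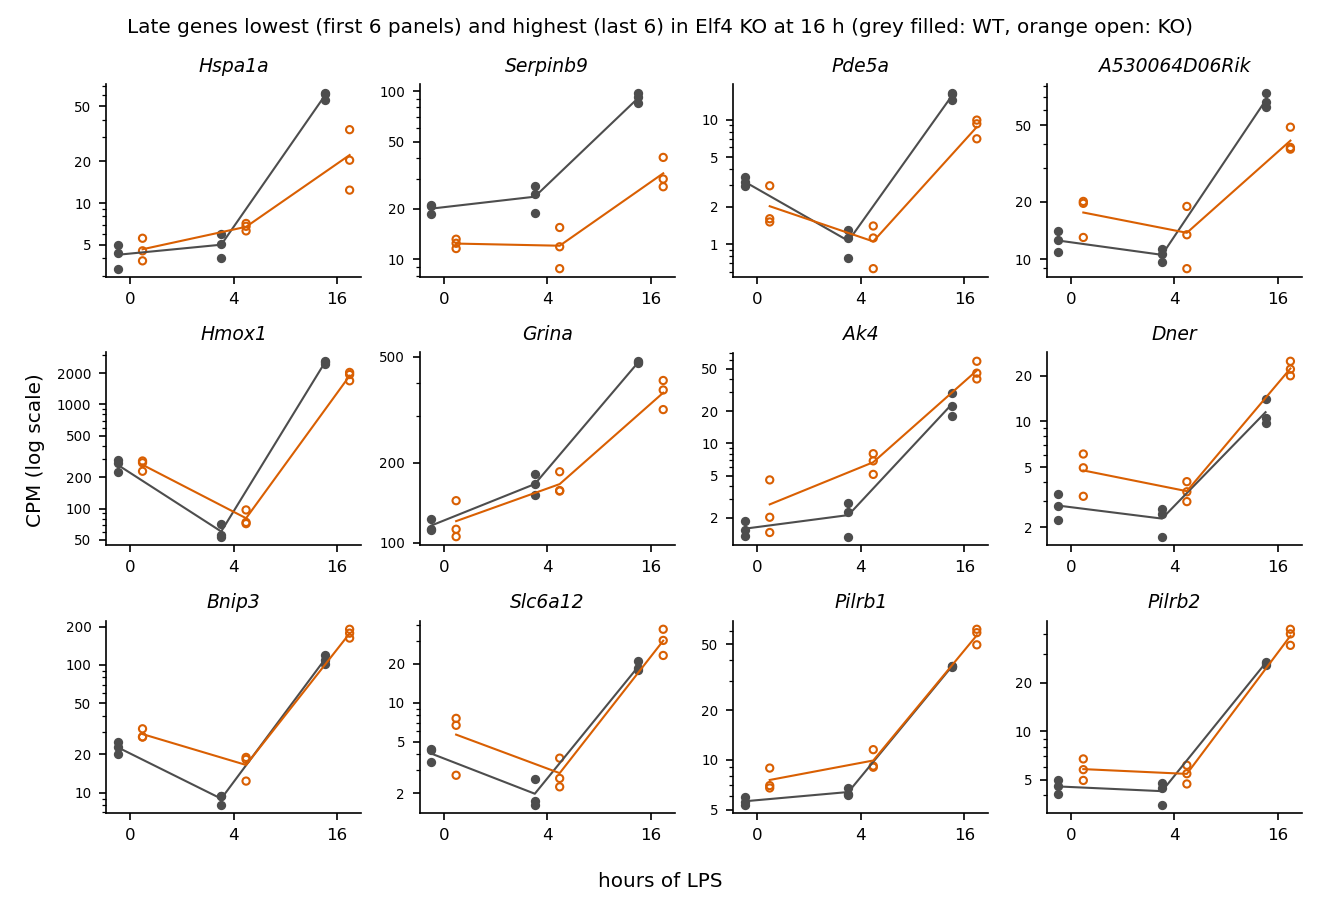
CPM on a log axis in each library (points) and group means (lines) for the 6 members lowest in Elf4 KO against WT at 16 h (Hspa1a to Grina) and the 6 highest (Ak4 to Pilrb2) among those whose libraries do not overlap; grey filled, WT; orange open, KO. Hspa1a starts level at 0 h (4.23 and 4.64 CPM) and ends at 59.4 CPM in WT and 22.2 CPM in KO.

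KO and WT were compared at each time as a description, because the rule chose the genes on WT values that were low at 0 h and 4 h and high at 16 h. KO libraries lay wholly above WT in 10 members and below in 1 at 0 h (background 6.88% and 7.35% of tested genes), in 24 and 2 at 4 h (12.9% and 9.5%), and in 14 and 9 at 16 h (33.6% and 15.1%). After median-ratio scaling the counts were 11 and 2 at 0 h, 18 and 2 at 4 h, and 11 and 13 at 16 h. The shares of all tested genes on that scale were not computed, so these counts have no background beside them. The median log2 difference of the members was 0.25, 0.42 and 0.20 at the 3 times, and that of all tested genes 0.00, 0.04 and 0.12. For the early and sustained genes it was 0.17, 0.02 and -0.48, and at 16 h 41 of these 334 lay above WT and 210 below. The count of 10 at 0 h became 18 without KO replicate 1 and 16 without KO replicate 3 or WT replicate 3. That of 1 became 4 without KO replicate 2 and 2 without KO replicate 1 or WT replicate 3. The count of 14 at 16 h became 22 without KO replicate 2. Leaving out a library can only keep or raise such a count, whatever the gene. Shares of all tested genes with a library left out were not computed.

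**Figure D5:**
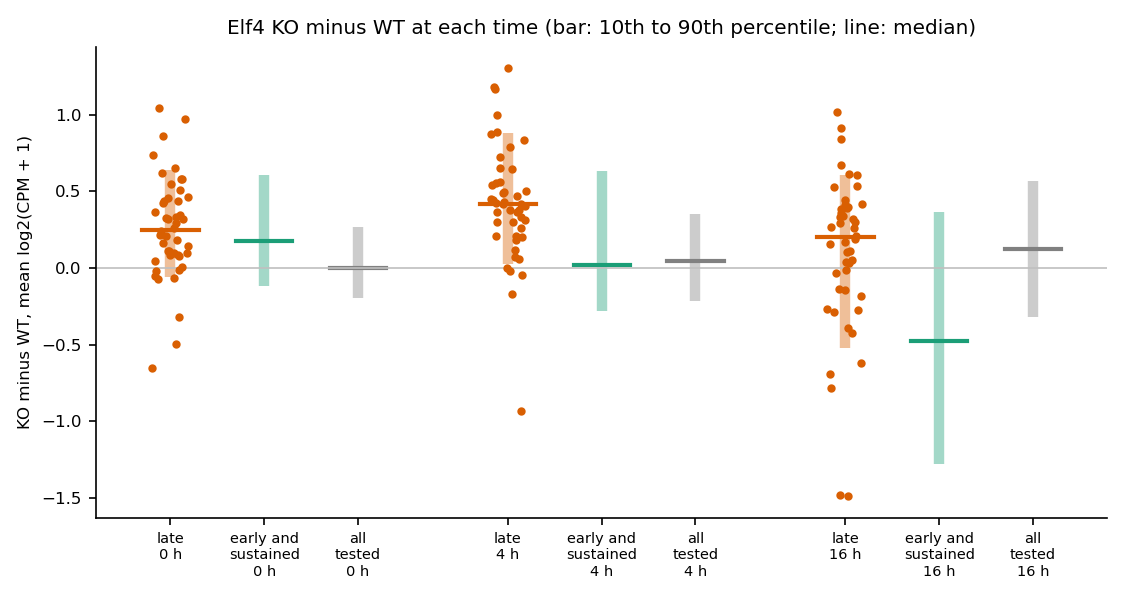
Elf4 KO minus WT in mean log2(CPM + 1) at 0, 4 and 16 h for the 46 late genes (points), the 334 early and sustained genes and the 12058 tested genes; bars span the 10th to 90th percentile and lines are medians. At 16 h the median of the early and sustained genes is -0.48 and that of the late genes 0.20.

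In CPM without median-ratio scaling, the members lower in KO at 16 h without overlap were Hmox1, Grina, Fam214b, Trib1, Serpinb9, A530064D06Rik, Hspa1a, Zfp821 and Pde5a. Higher were Slc16a3, Gsr, Gm5150, Bnip3, Ppp1r12b, Antxr1, Pilrb1, Pilrb2, Slamf6, Ak4, Slc6a12, C1rl, Dner and Slc39a4. Gm5150, Bnip3 and Pilrb1 were higher at all 3 times. After median-ratio scaling Antxr1, Slamf6 and Slc39a4 overlapped WT at 16 h, and Lst1, Ptger2, Rims3 and Slc11a1 were also lower in KO without overlap. The comparisons of genotypes gene by gene above are in CPM unless scaling is named.

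Applied to KO means, the same rule found 42 genes, and 30 were members (65.2% of the members and 71.4% of the KO genes). Of the 16 members that missed it, 10 missed the 4-fold limit alone (Grina, Lst1, Fam214b, Cmklr1, Serpinb9, A530064D06Rik, Napepld, Zfp821, Ptger2 and Dcn), 4 the 4 h limit (Gsr, Sdc1, Sla and Ak4), Trib1 both, and Pde5a the 10 CPM limit. The 12 genes found in KO only were Clmp, Creg2, Egln3, Gys1, Ms4a4a, Ms4a6b, Pecam1, Pfkl, Pla2g7, Plpp1, Prg4 and Rac2, named after their values were seen. Egln3, the oxygen-sensing prolyl hydroxylase, was at 20.95 CPM in KO at 16 h and 9.94 in WT. Pfkl, a phosphofructokinase of glycolysis, was at 301.1 and 194 CPM, and Gys1, glycogen synthase, at 123.1 and 76.2 CPM. Lower in KO than in WT at 16 h were Ms4a6b (528 and 680 CPM), Plpp1 (32.2 and 39.8) and Rac2 (824 and 860). All the others of the 12 had the higher mean in KO. After median-ratio scaling 18 members met the rule in KO.

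Genes close to the limits show how sharp the set is. Treml4 and Slc39a4 were just inside the 10 CPM limit in WT (10.8 and 11.1 CPM), and Egln3 and Prss46 just outside (9.94 and 9.06 CPM). At the 4-fold limit Fam214b (4.04) and Grina (4.12) were inside and Esd (3.93) and Pla2g7 (3.91) outside. At the 4 h limit Mxra7 (1.48) and Grina (1.43) were inside and Siglece (1.504) and Plekhg1 (1.54) outside, and Siglece reached 188 CPM at 16 h from 3.43 CPM at 0 h.

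T cells from the same series give a readout that the rule did not use. In WT naive CD4 T cells 24 members were listed, 14 of them at 1 CPM or more. In WT Th17 cells, differentiated over 48 h either with IL-6 plus IL-23 plus IL-1b (pathogenic) or with IL-6 plus TGF-beta (non-pathogenic), 28 and 25 were listed and 21 and 20 reached 1 CPM. Slc16a3 was 0.902 ± 0.189 CPM in naive cells and 84.0 ± 8.74 and 87.9 ± 6.16 CPM in pathogenic and non-pathogenic Th17 cells (SD, n = 3 each), and Bnip3 was 1.34 ± 0.397, 19.5 ± 0.370 and 17.9 ± 3.33 CPM. The tables were deposited separately, and no test was made between them.

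Between Elf4 W250S and WT, 15 to 21 members were tested in each T cell table, and at most 2 were called. Of all tested genes few were called there either. In naive cells 2 of 15 tested members were called up (background 3.31%, and 1.69% after median-ratio scaling). Ppp1r12b stood at 12.5, 12.7 and 14.8 CPM in WT and 19.6, 20.1 and 18.6 in W250S (log2 change 0.51 ± 0.11 SE, adjusted p = 0.011). Bnip3 stood at 1.73, 0.942 and 1.35 CPM in WT and 2.77, 1.93 and 2.92 in W250S (0.60 ± 0.16, adjusted p = 0.041). Members called down numbered 0 by limma (background 0.855%). At an unadjusted limma p below 0.05, 5 were up and 1 down, with no share of all tested genes at hand. The count of 2 fell to 0 without W250S replicate 1 or without W250S replicate 2, to 1 without W250S replicate 3, and became 3 without WT replicate 2.

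In non-pathogenic Th17 cells 1 of 20 tested members was called up and 1 down (background 4.12% and 2.94%, and 6.22% and 7.10% after scaling). Slamf6 stood at 55.1, 71.7 and 52.2 CPM in WT and 74.8, 85.8 and 86.0 in W250S (0.47 ± 0.10, adjusted p = 0.026). Hmox1 stood at 6.42, 5.94 and 6.21 CPM in WT and 4.08, 3.64 and 3.58 in W250S (fell by 0.60 ± 0.09, adjusted p = 0.0073). In the order given, Slamf6 was not called without any one of the W250S libraries or the last WT library, and Hmox1 not without the middle W250S library. In pathogenic cells 0 of 21 were called either way by limma (background 0.891% up and 1.16% down). At an unadjusted limma p below 0.05, 3 were up and 2 down, again with no share of all tested genes at hand.

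In open chromatin of naive CD4 T cells, 26 of the 46 members (56.5%) had a peak that the authors annotated to a transcription start, against 80.8% of tested macrophage genes and 65.0% of the early and sustained ones. Each peak carries counts for libraries labelled WT and for libraries labelled KO, and presence of a peak was not split by genotype. These are T cells, so the shares describe where the late macrophage genes are open in another cell type.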

How the data were processed

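The macrophage and T cell tables hold CPM that the authors computed, per the labels, and are not raw counts. For ATAC the authors deposited expected counts for each peak, and only the presence of a peak at a start was used. The submitters' processing notes name the build mm10 and the tools Bowtie2, DESeq2, MACS2, BWA and Partek 10.0.21.0411; which served which assay is not given in the sources used here. Per the file headers, the 18 macrophage libraries carry 18 different mouse numbers. Nothing states whether the T cell libraries came from separate mice, so p-values there measure only the spread between these samples, which may be technical.

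Values were tested as log2(CPM + 1) with limma 3.58.1 (R 4.3.3; lmFit, eBayes with trend, two-sided), with 1 mean per genotype and time over all 18 macrophage libraries, or per T cell table. A gene was tested when 3 or more libraries reached 1 CPM, and calls were at a Benjamini-Hochberg adjusted p below 0.05 over all of them. In data simulated for KO 16 h against KO 0 h (12058 genes, 200 changed), 91% of genes changed by 1 on the log2 scale and 100% of those changed by 2 were called in the right direction, and 5.45% of the calls were unchanged genes. The changed genes were drawn from those with a KO 0 h mean above 2 in log2(CPM + 1), so lower members such as Arg1, Slamf6 and Trem3 were not covered. In the real data 17.8% of tested genes were called up and 50.1% down, so these rates need not carry over. WT time changes were used by the rule, and so was the WT side of the KO minus WT differences, so both are descriptions. The fitted log2 changes understate low genes. The lowest value in the macrophage file is 0.0001. Of values under 50 times the most frequent low value, 59.4% to 69.6% were whole multiples of it within 0.02, which did not recover whole reads for nearly all genes, so no count test was run. Precision is given by the spread of 3 libraries; intervals from counting were not computed.

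Members and lists were chosen with earlier results of these data known. Every member is named; values in each library are given for the 12 with the highest WT mean at 16 h, the 6 lowest and 6 highest in KO minus WT at 16 h among those without overlap, and up to 4 per list. Alternatives were another pseudocount (0.1), no filter, median-ratio scaling, fewer libraries in the fit, a replicate block, other limits, and each library left out. Pathway lists were described by counts with no set test. Python 3.11.15, pandas 2.3.3 and matplotlib 3.10.9 were used for summaries.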

Additional observations from a re-analysis of the deposited data

Results flagged for a closer look

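Sla moved in opposite directions in the genotypes at 4 h: the 3 WT libraries (31.2, 28.4 and 29.6 CPM) were below the 3 at 0 h (33.4, 31.4 and 33.6), and the 3 KO libraries (44.4, 61.8 and 63.1) above those at 0 h (33.6, 35.2 and 36.8), a ratio of KO means of 1.60. The difference between the genotypes was not tested, because the WT change was used to choose the gene, and after median-ratio scaling Sla is among the 28 members whose WT mean at 4 h passed 1.5 times that at 0 h. Groups of 3 libraries were not examined for a library far from the others.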

How the results depend on the processing

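All 46 members were called up in KO at 16 h against 0 h under every alternative run: pseudocount 0.1, no filter, median-ratio scaling, only the 9 KO libraries, only the 6 libraries compared, the replicate block, each library left out, and KO replicate 2 left out throughout, the last chosen after seeing the data. At 16 h against 4 h it was 46 under all of these except median-ratio scaling, with 45 (Dcn was not called). At 4 h against 0 h the counts went from 9 up and 15 down to 27 and 2 with median-ratio scaling, and to 8 to 11 up and 11 to 15 down with a library left out. On that scaling 5 called members changed sign, Clec4a3 to 0.19, Cmklr1 to 0.13, Lst1 to 0.45, Slc11a1 to 0.45 and Tgfbi to 0.33; the all-gene median goes from -0.77 to -0.07.

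Replicate numbers: deviations of libraries with the same number and genotype correlated across times at r = 0.06 to 0.53, above 0.1 in 16 of 18 pairs, against -0.48 to 0.10 for other numbers, and in 34 of 36 cases the best match had its own number. As the labels tie no number to a shared mouse, this is a hint from the data only. With the replicate block, 46 members were called up at 16 h against 0 h and against 4 h, and 11 up and 16 down at 4 h. In naive T cells the block gave 4 members up for W250S. The Th17 columns carry numbers that are not tied to the titles' replicates. Same-numbered columns correlated at r = -0.18 to 0.08 in pathogenic and 0.01 to 0.18 in non-pathogenic cells. With these numbers as a block, chosen after seeing the data, pathogenic cells gave 0 members either way and non-pathogenic cells 2 up (Ppp1r12b and Slamf6) and 2 down (Grina and Hmox1). The shares of all tested genes called with a block are not given here, so the block counts, in macrophages and T cells, stand without a background.

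For W250S in naive cells the 2 calls up became 1 with no filter and 1 with median-ratio scaling, and 0 to 3 with a library left out. In pathogenic Th17 cells median-ratio scaling gave 1 up (Trib1), where 1.00% of all tested genes were called up, and a library left out 0 to 1 down. In non-pathogenic cells scaling gave 2 down (Grina and Hmox1), and a library left out 0 to 2 up and 0 to 2 down.

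The rule with a limit of 3 times at 16 h finds 80 genes and with 8 times 16; with a stricter and a looser 4 h limit it finds 39 and 59, with 5 and 20 CPM 53 and 39, with median-ratio scaling 32, and 44 to 51 with a WT library left out. Members that met the rule in KO went from 30 to 18 with scaling, and to 26 to 32 with a KO replicate left out. With a library left out, KO minus WT counts at 0 h went from 10 higher to 12 to 18 and from 1 lower to 1 to 4. At 4 h they were 26 to 28 and 2 to 3, and at 16 h 14 to 22 and 9 to 11. Counts of this kind cannot fall when a library is left out. Median-ratio scaling gave 11 higher and 2 lower at 0 h. At 4 h it took the count higher from 24 to 18, with 2 lower as before, and the scaled counts at 16 h are given above. The median differences over members ran from 0.19 to 0.31, 0.38 to 0.45 and 0.12 to 0.28 with a library left out. Members near 1 CPM at 0 h, such as Arg1, Slamf6 and Trem3, rest on few reads there.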
